A study of Mus musculus with 24 samples.

Results

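Brain gene expression was compared between 6 mice fed a chimpanzee diet and 6 mice fed a fast food diet, which are 12 of the 24 arrays of the series. The 12 arrays were chosen by the diet named in the sample titles and by no measured value. All 12 mice were female, of the strain that the labels call NMR-1, and were 8 weeks old when feeding began. The chimpanzee diet was the vegetables, fruit and yogurt given to captive chimpanzees, the fast food diet came only from McDonald's, and both were eaten freely for 2 weeks. RNA was extracted from the right cerebral hemisphere, 1 array was made per mouse, and 3 mice of each diet were processed in each of 2 labelled batches. Littermates were spread evenly over the diets, and no mutant or drug was used. The remaining arrays of the series were 6 from a cafeteria diet and 6 from mouse pellets. They enter below only as reference levels, in the level filter and in 1 alternative fit.

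The brain uses a large share of the body's glucose and makes nearly all of its own cholesterol, much of it for myelin, the lipid sheath that oligodendrocytes wrap around axons. Cells of the brain keep daily time with a loop of transcription factors: the CLOCK and ARNTL proteins bind a short DNA element, the E-box, and switch on Per and Cry genes, whose proteins then repress them. Meals, light and waking shift this loop, and Per1 is also switched on by glucocorticoid hormones and by neuronal activity, as are the immediate early genes. A bulk hemisphere sample mixes these cells, so that fewer cells of a type and less RNA per cell cannot be told apart in any value given here.

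Values are the authors' log2 expression levels, so that a difference of 1 is a doubling, and every difference is fast food minus chimpanzee. Of the 13839 features tested (11645 genes and 2194 probe sets with no gene named, whose log2 level averaged 4.07 or more), 60.3% had a difference above 0 and 39.7% one below 0, and the median difference was 0.03. The call rule was a Benjamini-Hochberg adjusted p under 0.05 in limma with labelled batch as a term. Pan-neuronal genes were at a list median of 9.37 to 10.41 in the 12 arrays and pituitary genes at 3.92 to 5.10. That median hides 1 array: in fast food batch 1 replicate 1 the pituitary hormone genes Gh and Prl were at 8.26 and 7.98. Their highest values in any other of the 12 arrays were 5.52 and 5.42. RNA quality did not separate the diets: the 3′ minus 5′ log2 difference of Actb and Gapdh was 0.268 ± 0.057 on the chimpanzee diet and 0.265 ± 0.025 on fast food (SD, n = 6; two-sided exact permutation test within batch, p = 0.94, smallest possible 0.005).

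Some arrays stood apart within a diet. In 4 arrays the log2 values spread less (SD 1.81 to 1.89) than in the other 8 (SD 2.02 to 2.06). They were chimpanzee batch 1 replicates 2 and 3 and fast food batch 1 replicates 1 and 2, so that each diet had 2 of these narrow arrays and 4 wide ones. On top of this, chimpanzee batch 1 replicate 1 and chimpanzee batch 2 replicate 2 were low in thalamus genes (list medians of 5.72 and 6.13) and in Pmch. Pmch, the melanin-concentrating hormone gene of the lateral hypothalamus, was at 4.56 and 4.12 in these 2 arrays and between 7.42 and 8.78 in the other 10. The list median of hypothalamus genes was 5.22 and 4.69 in these 2 arrays and 5.13 to 5.83 on fast food, so that the first lay within the fast food range. Results are therefore also given without these 2 arrays, and with the spread class of an array as a term beside labelled batch. The 2 arrays are both wide, so that without them narrow arrays are a larger part of the chimpanzee group than of the fast food group. Diet and spread class are then partly mixed unless the class is a term. The median difference over all features was 0.07 without these arrays, and 0.03 with the spread class as a term too. Both alternatives were chosen after seeing the data.

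Tmem181a, which encodes a membrane protein, was higher on fast food and was the only feature that passed the adjusted test (1 of 13839, 0.00723%). Its level on the chimpanzee diet had a lowest value of 7.59, a median of 7.80 and a highest value of 8.15. On fast food the lowest was 8.41, the median 8.68 and the highest 8.95. Every mouse on fast food lay above every mouse on the chimpanzee diet, which was so for 0.116% of all features in this direction. The mean rose from 7.84 ± 0.21 to 8.70 ± 0.21 (SD, n = 6), a difference of 0.86 (SE 0.11) or 1.81-fold (limma, adjusted p = 0.013). The difference was 1.01 in labelled batch 1 and 0.71 in labelled batch 2, 0.81 in the wide arrays and 0.96 in the narrow ones. Without both arrays low in Pmch it was 0.92 (adjusted p = 0.013). Mean levels were 8.23 ± 0.21 on the cafeteria diet and 7.67 ± 0.36 on pellets. The paper excluded 1 pellet brain sample, which it does not name, for RNA degradation. No pellet array was left out here. Pellet batch 2 replicate 1 had a median correlation of 0.8929 with the other arrays, where the next lowest array had 0.9799. It is part of the pellet mean and of the fit to all 24 arrays given below. A second probe set that matches Tmem181a and 2 of its transcribed pseudogenes alike was left out of the test and read 6.80 ± 0.24 against 7.03 ± 0.16, so that the larger difference was seen with 1 probe set. The call was lost on leaving out chimpanzee batch 1 replicate 2 (adjusted p = 0.053), chimpanzee batch 1 replicate 3 (0.068), chimpanzee batch 2 replicate 1 (0.076), fast food batch 1 replicate 2 (0.050), fast food batch 2 replicate 1 (0.070) or fast food batch 2 replicate 2 (0.056), and with all 24 arrays in the fit (0.074). It was also lost with a replicate block (adjusted p = 0.068), in the wide arrays alone (0.13) and in labelled batch 1 or 2 alone (0.32 and 0.20), where the difference kept its sign.

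**Figure D1:**
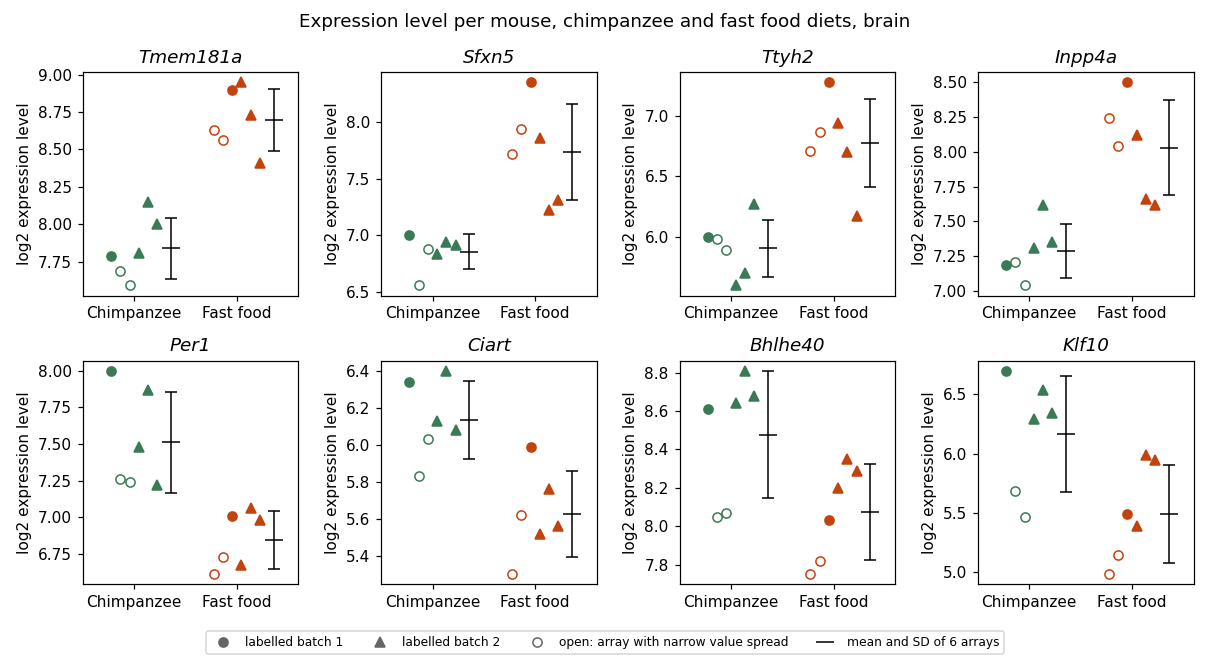
Log2 expression level (y axis) of 8 genes in each of the 12 mice by diet (x axis); circles are labelled batch 1, triangles labelled batch 2, open symbols the 4 narrow arrays, and bars the mean and SD of 6 arrays. In Tmem181a, Sfxn5 and Per1 the diets do not overlap, while in Ciart, Bhlhe40 and Klf10 the lowest chimpanzee arrays lie among the fast food arrays.

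The next genes by p were also higher on fast food, and none passed the adjusted test. Sfxn5, a sideroflexin of the mitochondrial membrane, had a lowest value of 6.56 and a median of 6.90 on the chimpanzee diet. On fast food it lay between 7.22 and 8.35 (median 7.79), and all 6 chimpanzee arrays were below that range. Its difference was 0.88 (SE 0.15, limma, adjusted p = 0.090), with 1.19 in batch 1 and 0.57 in batch 2. Ttyh2, a tweety family membrane protein, went from a median of 5.94 to one of 6.79, with 1 fast food mouse at 6.17 below the highest chimpanzee mouse at 6.27; its difference was 0.87 (SE 0.15, adjusted p = 0.090). Rpl14, a protein of the large ribosomal subunit, had medians of 4.09 and 5.14 (difference 0.89, SE 0.15, adjusted p = 0.090). That probe set is dim, and the other ribosomal protein genes did not share its difference, as given below. Tcte1, best known from the sperm flagellum, was 0.67 higher in each batch (SE 0.12, adjusted p = 0.11) and did not overlap between the diets (5.07 to 5.47 against 5.54 to 6.34).

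Inpp4a, a phosphatase of the phosphoinositide lipids that carry the insulin signal, had medians of 7.26 and 8.08. The diets did not overlap but met at 7.62, the highest chimpanzee and the lowest fast food value at this precision. The difference was 0.74 (SE 0.14, limma, adjusted p = 0.17), with 1.11 in batch 1 and 0.38 in batch 2. The limma interaction of diet with batch for Inpp4a had an unadjusted p of 0.0050 and an adjusted p of 1. Tmem250-ps, a pseudogene, varied in the same manner, by 1.24 in batch 1 and 0.14 in batch 2. Across all features no interaction of diet with labelled batch passed an adjusted p under 0.05 (0%), and 355 had an unadjusted p under 0.05 (2.57%).

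Most of the genes with small p were higher on fast food. At an unadjusted p under 0.05, 1006 features differed (7.27%), 765 of them higher (5.53%) and 241 lower (1.74%), so that 76% were higher. With 1 array left out, the number higher ran from 439 (without fast food batch 2 replicate 1) to 1745 (without chimpanzee batch 1 replicate 1). At a p under 0.01 with the same sign in both batches 186 were higher (1.34%) and 52 lower (0.376%). The two-way test of the study's methods, rebuilt on these values, gave 156 features at a p under 0.01 (1.17%), of which 112 were higher (0.837%), and none (0%) after Benjamini-Hochberg adjustment. This share rests on the scaling: when the 12 arrays were quantile normalized once more, 724 were higher (5.23%) and 754 lower (5.45%), a share of 49%, and the median over all features moved from 0.03 to -0.01. The same sign in both labelled batches was seen in 58.3% of features. The second scaling turned the sign of 7 of 35 list medians, among them those of insulin and IGF signalling (from 0.04 to -0.02), fatty acid oxidation (from 0.04 to -0.01), oxidative phosphorylation (from 0.03 to -0.01) and astrocytes (from 0.04 to -0.02).

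**Figure D2:**
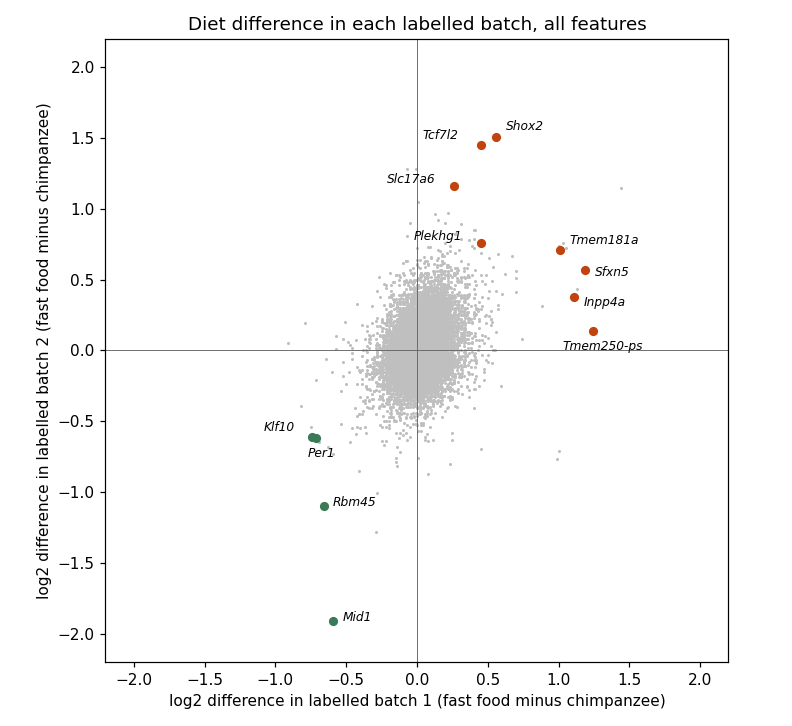
Log2 difference in labelled batch 1 (x axis) against that in labelled batch 2 (y axis), fast food minus chimpanzee, with 1 grey point per feature (13839) and named genes in orange (higher on fast food) or green (lower). Tmem181a lies at 1.01 and 0.71, Per1 at -0.71 and -0.62, and Mid1 at -0.59 and -1.91.

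Among genes with lower values on fast food, genes of the circadian clock recurred. Of 19 clock genes measured, 5 had an unadjusted p under 0.05 and a lower level (26.3%, against 1.74% of all features) and 1, Rora, had a higher level. Per1, a repressor of the loop, had a lowest value of 7.22, a median of 7.37 and a highest of 8.00 on the chimpanzee diet. On fast food these were 6.61, 6.85 and 7.06, so that the diets did not overlap, as for 0.0578% of all features in this direction. The difference was -0.67 (SE 0.14, limma, adjusted p = 0.31), with -0.71 in batch 1 and -0.62 in batch 2. Per2, its paralogue, ran from 6.35 to 6.71 on the chimpanzee diet and from 5.83 to 6.32 on fast food, again without overlap (difference -0.37, SE 0.09, adjusted p = 0.47). Ciart, a repressor of CLOCK and ARNTL, had medians of 6.11 and 5.59 with an overlap of the ranges (difference -0.51, SE 0.12, adjusted p = 0.42). For Bhlhe40, another E-box repressor, the medians were 8.63 and 8.11 (-0.40, SE 0.10, adjusted p = 0.47). Nr1d1, a nuclear receptor that represses Arntl, was 0.15 lower in batch 1 and 0.58 lower in batch 2 (difference -0.36, SE 0.11, adjusted p = 0.53).

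None of the other clock genes had an unadjusted p under 0.05 in limma with labelled batch. Arntl differed by 0.01, Cry1 by -0.02, Per3 by -0.04, Nr1d2 by 0.04, Npas2 by 0.08 and Clock by 0.13. Lower values were seen for Csnk1e (-0.20), Csnk1d (-0.17), Cry2 (-0.16), Hlf (-0.13), Rorb (-0.13) and Tef (-0.12). Dbp, an output factor of the loop, differed by -0.25, with an unadjusted limma p of 0.14, of 0.0094 with the spread class as a further term and of 0.0015 after repeated quantile normalization. On the latter scale Cry2, Csnk1e and Tef also had a p under 0.05, and Rora, with a difference of 0.24 in the first fit, did not. Over the 19 genes the median difference was -0.13 in each labelled batch, beside 0.03 over all features, -0.17 in the wide and -0.04 in the narrow arrays, and -0.18 after repeated quantile normalization, where 9 members were lower at a p under 0.05 (5.45% of all features). The 2 arrays low in Pmch also held the highest Per1 values, 8.00 and 7.87. Without both, the list median was -0.01 beside 0.07 over all features, and 6 members had an unadjusted p under 0.05 and a lower level (2.00% of all features, with 12.3% higher). These were the same 5 and Csnk1d, which follows the narrow arrays. There Per1 differed by -0.46, Per2 by -0.34, Ciart by -0.39 and Bhlhe40 by -0.29 (limma, adjusted p = 0.19 to 0.24). Leaving out any 1 array gave 5 to 7 such members.

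With the spread class beside labelled batch as terms, 23 features passed an adjusted p under 0.05 (0.166%), 19 higher (0.137%) and 4 lower (0.0289%). With the spread class in place of labelled batch 11 passed (0.0795%), all of them among the 23. At an unadjusted p under 0.05 the first of these fits had 10.1% of features higher and 3.24% lower, and 7 clock genes lower. All 4 lower ones were Per1, Bhlhe40, Ciart and Klf10 (limma, adjusted p = 0.031 each), of which the first 3 are clock genes. The 15 higher ones with a gene named were Tmem181a, Sfxn5, Rpl14, Ttyh2, Tcte1 and Inpp4a, described above, and Nipsnap2, Arglu1, Zscan26, Jakmip1, Dsel, Impact, Gm2a, Ddhd2 and Lrrc8a, with differences of 0.40 to 0.60. Gm2a encodes a lysosomal activator of ganglioside breakdown, Lrrc8a a subunit of the volume-regulated anion channel, and Impact a regulator of the translational response to amino acid shortage. On the 10 arrays without those low in Pmch, the same terms called 1 feature, Tmem181a (adjusted p = 0.013). The differences there were 0.82 for Sfxn5, 0.72 for Inpp4a, 0.60 for Tcte1, 0.75 for Ttyh2, 0.76 for Rpl14, -0.51 for Per1, -0.48 for Ciart, -0.33 for Bhlhe40 and -0.53 for Klf10 (adjusted p from 0.15 to 0.18). Fewer arrays and the 2 arrays themselves cannot be told apart in these lost calls.

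**Figure D3:**
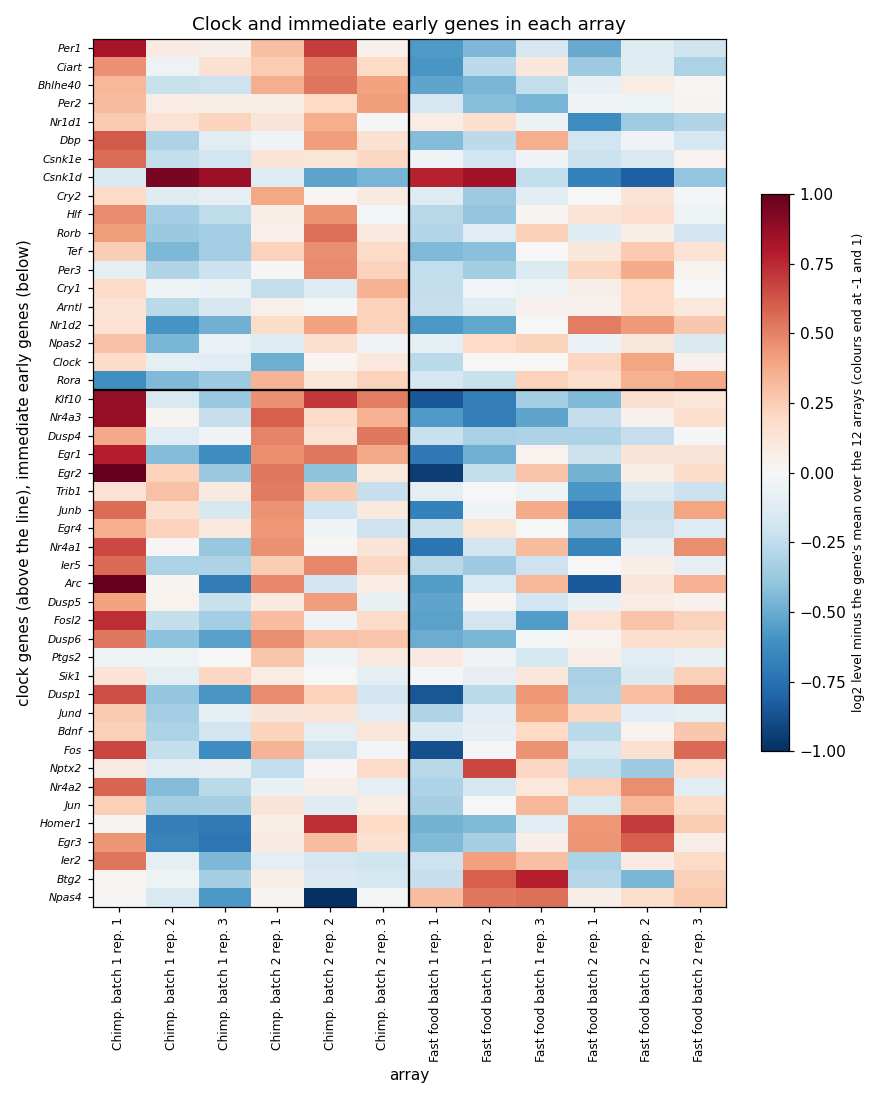
Log2 level minus the gene's mean over the 12 arrays (colour, red above and blue below the mean, ending at -1 and 1) for 19 clock genes above the line and 28 immediate early genes below it, with 1 column per array and chimpanzee arrays on the left. Per1, Ciart, Bhlhe40 and Per2 are mostly red on the left and blue on the right, while Csnk1d follows the 4 narrow arrays of both diets.

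Promoter sequences of Ciart, Per1 and Tmem181a are shown because the first 2 are the clock genes that passed with the spread class as a term and for which a window was at hand, and the third is the one gene called. Each window holds 250 bases before and 50 after a RefSeq start (GRCm38.p6), 5′ to 3′ on the gene's strand, with the E-box CACGTG in capitals; this motif reads the same on both strands. Ciart lies at chr3:95882179-95882478 on the minus strand, the Per1 window at chr11:69098699-69098998 on the plus strand and the Tmem181a window at chr17:6270220-6270519 on the plus strand.
Ciart: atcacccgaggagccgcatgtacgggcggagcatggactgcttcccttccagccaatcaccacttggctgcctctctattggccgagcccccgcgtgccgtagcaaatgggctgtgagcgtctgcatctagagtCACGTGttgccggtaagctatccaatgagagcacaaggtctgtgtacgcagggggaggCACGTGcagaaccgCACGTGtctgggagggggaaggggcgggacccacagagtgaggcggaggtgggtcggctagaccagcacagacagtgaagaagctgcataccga
Per1: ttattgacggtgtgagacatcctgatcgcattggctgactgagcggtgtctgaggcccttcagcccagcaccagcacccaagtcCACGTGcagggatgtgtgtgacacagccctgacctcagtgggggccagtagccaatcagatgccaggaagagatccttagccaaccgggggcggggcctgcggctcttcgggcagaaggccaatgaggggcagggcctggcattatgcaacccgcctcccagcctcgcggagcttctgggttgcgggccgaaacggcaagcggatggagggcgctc
Tmem181a: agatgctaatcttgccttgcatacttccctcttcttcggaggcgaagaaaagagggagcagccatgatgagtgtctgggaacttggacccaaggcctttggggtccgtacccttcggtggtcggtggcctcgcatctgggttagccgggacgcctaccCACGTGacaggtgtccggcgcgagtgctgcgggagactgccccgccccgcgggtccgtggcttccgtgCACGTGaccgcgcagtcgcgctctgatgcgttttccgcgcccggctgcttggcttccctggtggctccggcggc
The Ciart window holds 3 E-boxes, the Per1 window 1 and the Tmem181a window 2. Of 32851 windows of this length, 7.15% hold the motif and 29 hold 3 or more (0.0883%). A second window of Per1 and of Tmem181a, from another start, has none of these letters, and 4 of 16 clock genes with a window have at least 1. The cAMP response element TGACGTCA, also a palindrome and not overlapping the E-box, is in 1.79% of all windows and in none of these. A match describes the letters only.

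Immediate early genes, which neurons switch on within minutes of activity, had mixed values. Of 28 measured, 6 were lower at an unadjusted p under 0.05 (21.4%, against 1.74% of all features) and 1 was higher (3.57%, against 5.53%). Klf10, a zinc finger repressor, had medians of 6.32 and 5.44 (difference -0.68, SE 0.18, limma, adjusted p = 0.47). Nr4a3, an orphan nuclear receptor, had medians of 7.79 and 7.14 (-0.60, SE 0.16, adjusted p = 0.47), and Dusp4, a phosphatase that switches off MAP kinases, 5.33 and 4.80 (-0.47, SE 0.11, adjusted p = 0.35). Egr4, Trib1 and Ier5 made up the rest of the 6, with differences of -0.29, -0.36 and -0.29. Npas4, a transcription factor induced by neuronal calcium, went the other way: it lay between 3.94 and 5.15 on the chimpanzee diet and between 5.18 and 5.67 on fast food (difference 0.63, SE 0.17, adjusted p = 0.49), without overlap but at low levels. Of the classical members, Fos differed by 0.03, Arc by -0.25, Egr1 by -0.37 and Nr4a1 by -0.29 (limma, unadjusted p = 0.89, 0.36, 0.076 and 0.18). For Egr1 the unadjusted limma p was 0.0020 with the spread class as a further term and 0.0015 after repeated quantile normalization. Without both arrays low in Pmch the Egr1 difference was -0.13 (limma, adjusted p = 0.70). With the spread class as a term too it was -0.25 (limma, unadjusted p = 0.029, adjusted p = 0.36). The list median was -0.14, -0.19 after repeated quantile normalization, and -0.06 without both arrays low in Pmch, where 5 members were lower and 4 higher at an unadjusted p under 0.05 (2.00% and 12.3% of all features). In the wide arrays the list median was -0.19 and in the narrow ones -0.02. Leaving out any 1 array gave 4 to 8 lower members and 1 to 3 higher ones, with 3 higher without chimpanzee batch 1 replicate 1.

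Genes that glucocorticoids induce were lower in 5 of 17 measured at an unadjusted p under 0.05 (29.4%, against 1.74% of all features) and higher in none (against 5.53%). One of the 5 is Per1, which is in both lists. Sult1a1, a sulfotransferase for phenols and catechols, had medians of 5.70 and 5.19 (difference -0.65, SE 0.18, limma, adjusted p = 0.49). Zbtb16, a zinc finger factor, had medians of 7.83 and 7.54 (-0.50, SE 0.17, adjusted p = 0.58), and -0.27 without both arrays low in Pmch. Fkbp5, a co-chaperone of the glucocorticoid receptor that was named after its values were seen, differed by -0.26 (adjusted p = 0.61). Mt1, Klf9 and Nfkbia, the members with the highest levels, differed by -0.22, 0.16 and -0.03. The list median was -0.11, with -0.16 in batch 1, -0.05 in batch 2 and -0.16 after repeated quantile normalization. Without both arrays low in Pmch 3 members were lower, as also without fast food batch 2 replicate 1.

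Enzymes of lipid synthesis lay slightly higher on fast food in nearly every case, at sizes that the test could not separate from the spread between mice. All 19 cholesterol synthesis genes measured had a difference above 0, beside 60.3% of all features, and 2 had an unadjusted p under 0.05 (10.5%, against 5.53%). The list median was 0.13, with 0.09 in batch 1 and 0.19 in batch 2, and 17 of 19 stayed above 0 after repeated quantile normalization, where the median was 0.08. Dhcr7, which makes cholesterol in the last step, had a lowest value of 6.09, a median of 6.19 and a highest of 6.42 on the chimpanzee diet, and 6.16, 6.54 and 7.04 on fast food. The ranges overlapped and the difference was 0.37 (SE 0.10, limma, adjusted p = 0.52). Hmgcs1, which makes the HMG-CoA that enters the pathway, differed by 0.28 (limma, unadjusted p = 0.093, but 0.0024 with the spread class as a further term and 0.0029 after repeated quantile normalization). Without both arrays low in Pmch Hmgcs1 differed by 0.43 (limma, adjusted p = 0.26), and by 0.30 with the spread class as a term too (adjusted p = 0.28). Msmo1 differed by 0.16 and Fdft1 by 0.08. With the spread class as a further term 6 of the 19 genes had an unadjusted p under 0.05 and a higher level, beside 10.1% of all features.

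In fatty acid synthesis 22 of 23 genes lay above 0 with a list median of 0.13 (0.08 after repeated quantile normalization, with 18 above 0), and 3 had an unadjusted p under 0.05 (13%). Gpam, which starts glycerolipid synthesis, had medians of 8.19 and 8.49 (difference 0.24, SE 0.09, limma, adjusted p = 0.61). Elovl5, an elongase of polyunsaturated fatty acids, had medians of 9.08 and 9.50 (0.28, SE 0.13, adjusted p = 0.67). Scd2, the main desaturase of the brain, differed by 0.13 and Acly, which supplies acetyl-CoA, by 0.18. With the spread class as a further term 7 had a p under 0.05 and a higher level. The counts with p under 0.05 moved with single arrays, for fatty acid genes to 0 (without fast food batch 1 replicate 3 or fast food batch 2 replicate 1), 1 (chimpanzee batch 2 replicate 2), 6 (chimpanzee batch 1 replicate 1), 7 (chimpanzee batch 2 replicate 3) or 8 (fast food batch 1 replicate 1). For cholesterol genes they moved to 6 (without chimpanzee batch 1 replicate 1) or 5 (fast food batch 1 replicate 1).

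Few genes of energy use had a small p. None of 20 glycolysis genes, 32 subunits of oxidative phosphorylation and 22 genes of fatty acid oxidation and ketone use had an unadjusted p under 0.05 in limma with labelled batch, with list medians of -0.01, 0.03 and 0.04; leaving out chimpanzee batch 1 replicate 1 gave 2 genes of fatty acid oxidation, and repeated quantile normalization 1 of glycolysis. Aldoa differed by 0.06, Ldhb by 0.02, Cox5b by 0.00 and Uqcrb by 0.05. Of 19 cytosolic ribosomal protein genes only Rpl14 had a p under 0.05, while Rpl4 differed by 0.01 and Rps2 by -0.04. These p-values do not show that the levels were equal. Of 27 genes of insulin and IGF signalling, 14 lay above 0 (51.9%, beside 60.3% of all features). An unadjusted p under 0.05 was seen for 5, all higher (18.5%, against 5.53% of all features). Besides Inpp4a, Igf1, which encodes the growth factor and was named after its values were seen, differed by 0.30 (adjusted p = 0.53). This count fell to 2 without chimpanzee batch 1 replicate 2, chimpanzee batch 1 replicate 3, chimpanzee batch 2 replicate 1 or fast food batch 1 replicate 3, to 3 without chimpanzee batch 2 replicate 2, fast food batch 2 replicate 1 or fast food batch 2 replicate 2, and rose to 9 without chimpanzee batch 1 replicate 1. Without that last array 1745 of all 13839 features were higher at an unadjusted p under 0.05, beside 765 with it.

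Among 26 heat shock and chaperone genes, 3 were higher and 1 lower at an unadjusted p under 0.05 (5.53% and 1.74% of all features). The higher count ran from 0 to 8 with single arrays left out, and was 0 without chimpanzee batch 2 replicate 1 or 2 or fast food batch 1 replicate 3 or batch 2 replicate 1, and 8 without chimpanzee batch 1 replicate 1. It was 1 without chimpanzee batch 1 replicate 2 or 3 or fast food batch 2 replicate 2 or 3, and 5 without fast food batch 1 replicate 1. Over all features the higher count was 765 with all 12 arrays. It was 1745 without chimpanzee batch 1 replicate 1, 1249 without fast food batch 1 replicate 1 and 439 without fast food batch 2 replicate 1. Pdia4, a disulphide isomerase of the endoplasmic reticulum, differed by 0.25, while Dnajb5, a cytosolic co-chaperone, differed by -0.27, and Hspa8, the most abundant member, by 0.05. Slc7a5, a transporter of large neutral amino acids at the blood-brain barrier, was the one member with a p under 0.05 among 26 genes of the amino acid response (difference -0.18). Among receptors, Htr1b and Htr2c, for serotonin, differed by 0.30 and 0.29, Gabrg1, a GABA-A receptor subunit, by 0.48, and Npy5r and Mchr1, receptors of the feeding peptides neuropeptide Y and melanin-concentrating hormone, by 0.28 and -0.20 (limma, adjusted p from 0.53 to 0.68). Gabrg1 was the 1 of 10 GABA-A subunits measured with a p under 0.05, and the list median was 0.16. Without chimpanzee batch 1 replicate 1, and also without both arrays low in Pmch, 6 of 10 were higher at a p under 0.05 (12.3% of all features in the latter case), with a median of 0.29 in the latter. Gabrg1, Htr1b and Htr2c differed in the wide arrays (0.71, 0.44 and 0.46) and were near 0 in the narrow ones (0.01, 0.02 and -0.06). Htr1b differed by 0.02 in labelled batch 1 and by 0.58 in labelled batch 2.

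**Figure D4:**
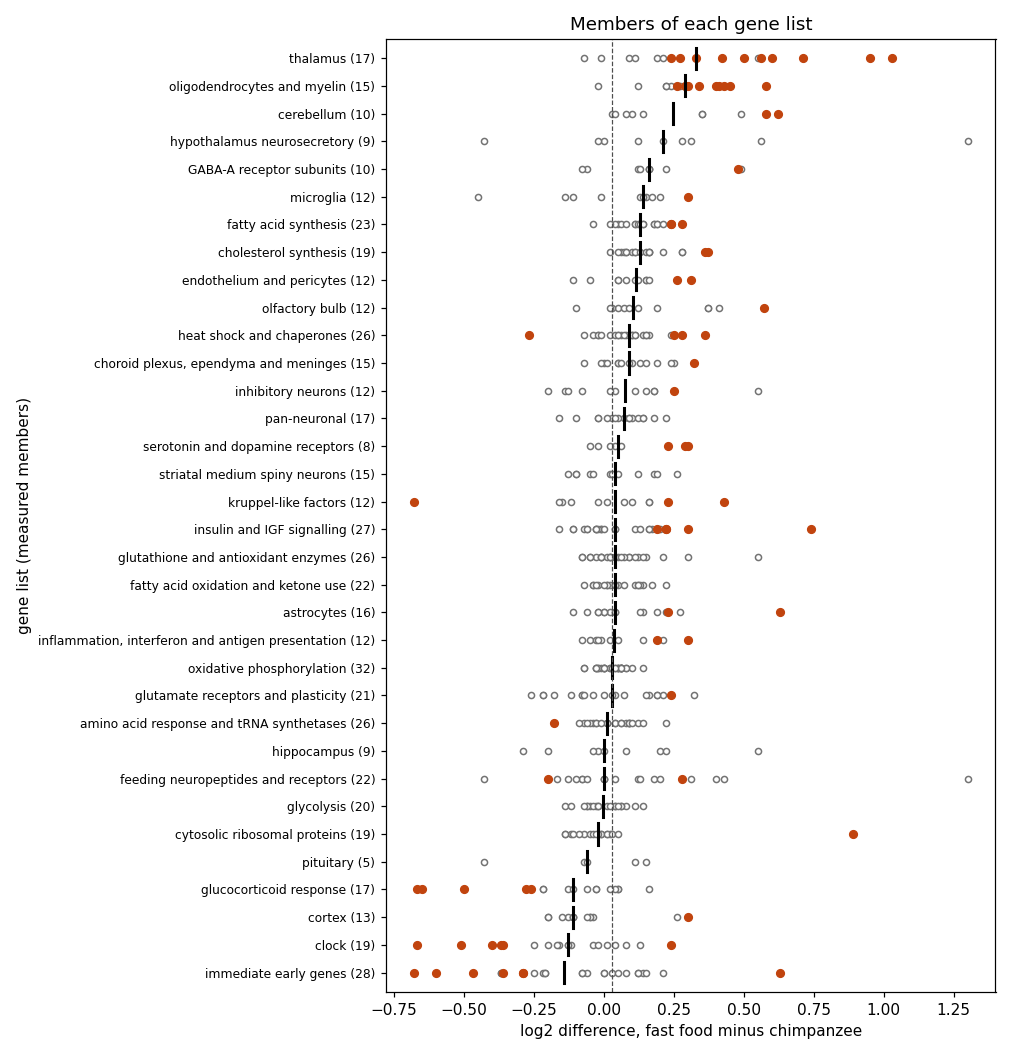
Log2 difference (x axis, fast food minus chimpanzee) of every measured member of each gene list with at least 5 measured members (y axis, number measured in brackets). Filled points have an unadjusted p under 0.05, open points do not, black bars are list medians and the dashed line is the median of all features, 0.03; thalamus (0.33) and myelin (0.29) lie highest, immediate early genes (-0.14) and clock genes (-0.13) lowest.

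Markers of cell types and regions differed as well. Of 15 oligodendrocyte and myelin genes measured, 14 lay above 0 and 10 were higher at an unadjusted p under 0.05 (66.7%, against 5.53%). Opalin, a membrane protein of myelin, had a lowest value of 6.50, a median of 6.57 and a highest of 7.01 on the chimpanzee diet, and 6.77, 7.15 and 7.32 on fast food. These ranges overlapped, and the difference was 0.43 (SE 0.11, limma, adjusted p = 0.47). The 3 brightest members had smaller differences: Mbp, the myelin basic protein, differed by 0.12, Cnp by 0.27 and Mobp by 0.22. Per array, the list median ran from 7.51 to 8.00 on the chimpanzee diet and from 7.69 to 8.29 on fast food. The median difference was 0.29, with 0.21 in batch 1 and 0.34 in batch 2, and 0.41 in the wide and 0.10 in the narrow arrays. Without both arrays low in Pmch it was 0.28, beside 0.07 over all features. There 7 members had a p under 0.05, and 12.3% of all features were higher at such a p. With the spread class as a term too the list median was 0.17, beside 0.03. In that fit 5 members had a p under 0.05, and 1369 of 13839 features were higher at such a p. Leaving out any 1 array gave 7 to 12 members with such a p, and repeated quantile normalization 10.

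Thalamus genes were higher in 10 of 17 at an unadjusted p under 0.05 (58.8%, against 5.53% of all features), with a list median of 0.33. Tcf7l2, a transcription factor of thalamic neurons, was at 3.92 and 3.91 in the 2 chimpanzee arrays low in Pmch and between 4.98 and 5.37 in the other 4, beside 5.10 to 6.27 on fast food. Shox2 had values of 4.37 and 4.29 in these 2 arrays, 5.79 to 6.17 in the other 4 and 5.65 to 6.91 on fast food. The differences were 0.95 (SE 0.27, limma, adjusted p = 0.53) for Tcf7l2 and 1.03 (SE 0.33, adjusted p = 0.55) for Shox2, and without both arrays 0.53 and 0.48. Slc17a6, the vesicular glutamate transporter of subcortical neurons, went from 0.71 to 0.31, and the list median to 0.13, beside 0.07 over all features. With the spread class as a term too, Slc17a6 differed by 0.22 and the list median was 0.10, beside 0.03. Without both arrays and without that term 3 members had a p under 0.05, where 12.3% of all features were higher at such a p. Leaving out chimpanzee batch 1 replicate 1 or chimpanzee batch 2 replicate 2 alone gave 5, leaving out fast food batch 1 replicate 3 gave 6, and repeated quantile normalization gave 5. In the narrow arrays the list median was -0.11, against 0.47 in the wide ones. The 2 chimpanzee arrays thus held less RNA of thalamus genes and of Pmch and more of Per1, and the part of this in the clock result was not tested beyond the values without them.

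Other marker lists had fewer members with a small p. Cerebellum genes had a median of 0.24 over 10 members, of which Zic1 (0.62) and Cbln1 (0.58, named after its values were seen) had a p under 0.05, and Calb1 and Pvalb, which other regions also express, differed by 0.03 and 0.04. The cerebellum median was 0.44 in the wide and -0.13 in the narrow arrays, and without both arrays low in Pmch none of the 10 had a p under 0.05 and Zic1 differed by 0.40. Leaving out chimpanzee batch 2 replicate 2, fast food batch 1 replicate 3 or fast food batch 2 replicate 1 left 1 of the 2. Cortex genes had a median of -0.11 over 13 members and of 0.07 without both arrays low in Pmch, with Slc17a7, the cortical vesicular glutamate transporter, at -0.15. The cortex median was -0.28 in the wide arrays and 0.19 in the narrow ones, where all 13 members lay above 0. Of 16 astrocyte genes 2 had a p under 0.05: Aqp4, the water channel of astrocyte endfeet, had medians of 8.24 and 9.02 (difference 0.63, SE 0.15, limma, adjusted p = 0.44), while Glul differed by 0.14 and Gja1 by 0.27. Tyrobp among 12 microglia genes differed by 0.30, and Slco1c1 and Rgs5 among 12 endothelial and pericyte genes by 0.31 and 0.26. Alas2, the heme enzyme of red blood cell precursors and the one member of its list measured, differed by -0.66 (SE 0.28, adjusted p = 0.66). The part of these cell and region differences in the other results was not tested.

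**Figure D5:**
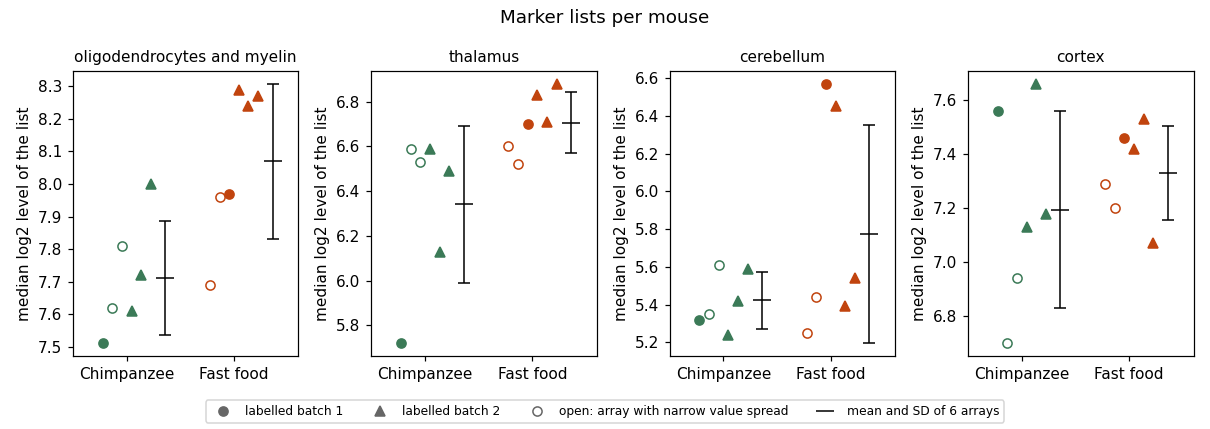
Median log2 level of the measured members of 4 marker lists (y axis) in each of the 12 mice by diet (x axis), with symbols as in the plot of single genes and bars for mean and SD of 6 arrays. The thalamus list is lowest in chimpanzee batch 1 replicate 1 (5.72) and chimpanzee batch 2 replicate 2 (6.13), and the cerebellum list is highest in 2 fast food arrays (6.57 and 6.45).

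Outside these lists, the largest lower values on fast food were of Mid1, Rbm45, Mtm1, Zfp945, Cyp4f15 and Mrpl1. Mid1, a ubiquitin ligase of microtubules, did not follow diet alone: it was at 3.85 in 1 chimpanzee array and between 5.26 and 6.20 in the other 5, and at 5.87 in 1 fast food array and between 3.61 and 4.25 in the other 5. Its difference was -1.25 (SE 0.39, limma, adjusted p = 0.55), -1.97 in the wide arrays and 0.18 in the narrow ones, where both exceptions lie. Rbm45, an RNA-binding protein, had medians of 6.87 and 5.72 (difference -0.88, SE 0.19, adjusted p = 0.31), with 1 fast food array at 6.73. Mtm1, a lipid phosphatase, differed by -0.67, Zfp945 by -0.63, Cyp4f15, a fatty acid hydroxylase of the cytochrome P450 family, by -0.56, and Mrpl1, of the mitochondrial ribosome, by -0.53 (adjusted p from 0.34 to 0.56). On the higher side, Klf13, a zinc finger factor, differed by 0.43 (SE 0.10, adjusted p = 0.41) with medians of 7.70 and 8.10, and Serpinb1a, a protease inhibitor, by 0.62 (SE 0.16, adjusted p = 0.47). Of the genes in this paragraph, Zfp945, Mrpl1 and Klf13 each had 1 other probe set past the filter. It did not share the sign of the difference in any of these genes.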

How the data were processed

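Brain RNA of 12 mice, 6 on the chimpanzee diet and 6 on fast food, was hybridised to Affymetrix mouse genome arrays. The deposited table gives log2 values for 45101 probe sets. The authors made them with RMA from the affy package, that is background correction, quantile normalization and a log transform (version not given in the sources used here). RMA pulls differences of dim probe sets towards 0. The study's detection filter was not applied, and the level of a probe set was used in its place.

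Control probe sets (64) and probe sets matching several genes (932) were dropped first. A probe set then had to average 4.07 or more over the 24 arrays, which is the median, and a gene was represented by its brightest probe set, leaving 13839 features. Of 34945 probe sets with 1 gene, 34741 matched the RefSeq gene table. Limma 3.58.1 (R 4.3.3; lmFit, eBayes) was fitted with diet and labelled batch, two-sided, with Benjamini-Hochberg adjustment over all features, after being tested on simulated data. The number of arrays limits the precision. Each array is a separate mouse.

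The genes described and the 35 lists (693 genes, 550 measured, 79.4%) were chosen with earlier results of these data known. Lists were described by counts and medians of their measured members, with no set test. Genes were named by a rule: every called feature, up to 12 per direction with the largest difference at an unadjusted p under 0.01 and the same sign in both batches, in each list the smallest p under 0.05 per direction and the 3 brightest members, and all clock and immediate early genes. The genes with a call only in an added fit, and those marked as such, were named after their values were seen. Alternatives changed the filter, the choice of probe set, the scaling, the weights of arrays, the prior, the batch term, the set of arrays, a replicate block and 1 array at a time. The spread class (array SD under 1.95) and leaving out arrays with Pmch under 6 were added after seeing the data. Plots were made in Python 3.11.15 with matplotlib 3.10.9.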

Additional observations from a re-analysis of the deposited data

Results flagged for a closer look

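Among the genes described, 118 groups of 6 arrays were searched for a single array far from the other 5 of its diet, and 7 stood out. Chance marks about 1 in 20 groups, so that this number is close to what it gives. On the chimpanzee diet, Sfxn5 was at 6.56 in batch 1 replicate 2 with the next array at 6.84, Cyp4f15 at 6.61 in batch 1 replicate 1 (next 6.15), Mrpl1 at 5.24 in batch 1 replicate 1 (next 4.83) and Aqp4 at 9.05 in batch 2 replicate 3 (next 8.47). On fast food, Dusp4 was at 5.06 in batch 2 replicate 3 (next 4.85), Mrpl1 at 4.91 in batch 1 replicate 1 (next 4.30) and Mid1 at 5.87 in batch 1 replicate 1 (next 4.25).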

How the results depend on the processing

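With limma and labelled batch 1 feature was called. The count was 2 after repeated quantile normalization (Tmem181a and Bhlhe40), 66 with array weights, 6 with a trended and robust prior, 3 with the diet-batch interaction in the model, 0 with all 24 arrays, 0 in labelled batch 1 alone, 11 with the spread class in place of labelled batch (all 11 among the 23 of the next fit), 23 with both, and 8 in the narrow arrays alone. In labelled batch 2 alone and in the wide arrays alone the 1 feature called was Mid1. The methods' two-way test called 0 after Benjamini-Hochberg adjustment, and 156 of 13379 features (1.17%) at an unadjusted p under 0.01, 112 of them higher. Leaving out 1 array gave 0 to 4 features. The other settings of filter, probe set, centring and batch term gave 1.

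Deviations of same-numbered arrays of both diets had r from -0.51 to 0.38 over 6 pairs. In batch 1, r was 0.21 to 0.61 between arrays of the same spread class and -0.61 to -0.30 between arrays of different classes. The check therefore cannot show whether same-numbered mice were littermates, and the numbers were not taken as pairs. With a replicate block 0 features were called, and 802 had an unadjusted p under 0.05. For 59 of the named genes refitted under each alternative, 1803 values kept their direction and their side of the threshold of the adjusted p, 47 passed it, 11, all of Tmem181a, no longer did, and 6 changed sign, all in the narrow arrays alone, where 2 mice met 2: Tcf7l2 (-0.19), Mid1 (0.18), Shox2 (-0.30), Zic1 (-0.21), Slc17a6 (-0.34) and Htr2c (-0.06). The cause was not tested. After repeated quantile normalization 19 of 35 list medians lay above 0, against 26. No diet-batch interaction was called in the settings in which it was tested, which were no filter, repeated quantile normalization and each array left out, nor was an interaction of diet with the spread class. Dim probe sets limit Rpl14, Npas4 and Igf1, whose levels lie near the filter. The same holds, among others, for Serpinb1a, Mrpl1, Npy5r, Zfp945 and Dusp4, and for Mid1 on fast food.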

Other observations

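In the list of inflammation, interferon and antigen presentation, H2-D1 and H2-K1, which encode class I antigen-presenting proteins, were the 2 of 12 measured with an unadjusted p under 0.05 (differences of 0.30 and 0.19, limma, adjusted p = 0.60 and 0.67). Dcn, a matrix proteoglycan of the meninges, differed by 0.32 (adjusted p = 0.54), Pbx3, an olfactory bulb gene, by 0.57 (0.63), Foxp2, a factor of deep cortical layers, by 0.30 (0.61), Gad2, a GABA-making enzyme, by 0.25 (0.65), and Grin3a, an NMDA receptor subunit, by 0.24 (0.65). Grin3a was the 1 of 21 genes of glutamate receptors and plasticity with a p under 0.05, and the count of higher members was 5 without chimpanzee batch 1 replicate 1 and 6 without both arrays low in Pmch. Over all 13839 features the number higher was 1745 and 1696 in these 2 fits, beside 765 with all 12 arrays. Pbx3 was the 1 of 12 olfactory bulb genes, with 4 without fast food batch 1 replicate 1 and 0 without fast food batch 1 replicate 2 or batch 2 replicate 1. None of 26 genes of glutathione and antioxidant defence, 9 hippocampus genes and 15 genes of striatal neurons had a p under 0.05 in limma with labelled batch. With the spread class as a further term 3 antioxidant genes were higher, 2 hippocampus genes were higher and 2 lower, and 1 striatal gene was higher, and with single arrays left out the higher counts reached 3, 2 and 2. For the antioxidant genes the list median was 0.04, and for the striatal genes 0.04, beside 0.03 over all features.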
